A study of Mus musculus with 12 samples.

Results

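Genes of the noncollagenous vascular matrix were followed in cultured mouse aortic smooth muscle cells kept at a low or a high glucose level. The set was a fixed list of 43 genes in 4 classes: 13 of elastic fibres, 8 laminin chains and nidogens, 11 proteoglycans and 11 matricellular or adhesive glycoproteins. Each gene was read from the probe set that carries that 1 symbol in the platform annotation, the brightest where several did. This gave a value for 41 of the 43 genes, out of 22180 genes with a value on the array. Fbn1 and Efemp2 were not analysed here.

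The cells were aortic smooth muscle cells in primary culture, passage 3 to 4, taken from C57BL/6J mice, a common inbred strain. All were grown in DMEM with 10% fetal calf serum, with glucose at 0.3 g/l (1.7 mM) in one group and 4.5 g/l (25 mM) in the other. The sample labels give the exposure as 1 week and the series text as 14 days. Each group had 6 arrays, numbered as replicates 1 to 6. No label ties them to separate cultures or animals, so p-values cover only how far these samples differ among themselves, and that spread may be technical. Glucose and osmolarity rose together and cannot be told apart with these samples.

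The elastic fibre is a core of cross-linked elastin on a scaffold of fibrillin microfibrils, to which fibulins, emilins and microfibril-associated glycoproteins bind; it gives the aorta its recoil. Laminins are heterotrimers of an alpha, a beta and a gamma chain that polymerise into the basement membrane around each smooth muscle cell, and nidogens link that polymer to collagen IV. Proteoglycans carry glycosaminoglycan chains: large ones such as versican and aggrecan hold water, and small leucine-rich ones such as decorin and fibromodulin bind collagen fibrils. Matricellular proteins such as thrombospondins and tenascins sit in the matrix and act on cells rather than bearing load.

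All values are log2 RMA values, so that a difference of 1 is a doubling. A gene is called higher or lower in 4.5 g/l where limma gave an adjusted p (Benjamini-Hochberg over all 22180 genes) under 0.05. The arrays themselves had medians between 4.92 and 5.05, and the largest value on any array was 13.90. Replicate 4 of the 0.3 g/l group stood apart: over all probe sets it reached a correlation of 0.985 with some 4.5 g/l array but at most 0.982 inside its own group. All 12 arrays were kept, and results are also given without it. The labelled cell type was checked on markers. The 9 smooth muscle markers had a mean of 8.73 to 8.88 in the other 5 arrays of 0.3 g/l, of 9.85 in replicate 4 and of 10.31 to 10.56 in 4.5 g/l. All 11 endothelial markers also lay above 4.20, the mean below which the dimmest 25% of genes fell. In 0.3 g/l the brightest, Emcn and Cdh5, averaged 11.71 and 11.10, and the dimmest, Cldn5 and Kdr, averaged 5.26 and 5.52. The endothelial list mean was 7.73 to 7.78 in the other 5 arrays of 0.3 g/l and 7.72 to 7.84 in 4.5 g/l replicates 1 to 3, but 7.23 in 0.3 g/l replicate 4 and 7.03 to 7.07 in 4.5 g/l replicates 4 to 6. Fibroblast markers (9 measured, among them the set members Dcn and Lum) averaged 5.61 to 5.82, 5.74 to 5.81, 5.65 and 5.43 to 5.52 in the same 4 sets of arrays. Within these lists Cd34 was 2.02-fold lower in 4.5 g/l (limma adjusted p = 0.000195, no overlap), Col14a1 1.29-fold higher (limma adjusted p = 0.0193) and Emcn 1.35-fold lower (limma adjusted p = 0.0236). The 7 macrophage and 5 adipocyte markers averaged at most 5.29 and 5.09 on any array. The brightest of each list, Cd68 and Fabp4, averaged 7.33 and 6.40 in 0.3 g/l. With 12 arrays 0 of these markers passed in limma, by the rank-sum test or at an unadjusted limma p under 0.05. With 4.5 g/l replicates 4 to 6 set against 0.3 g/l replicates 5 and 6, Fabp4 differed by -0.81 (limma adjusted p = 0.0337). In bulk RNA, fewer cells of a type and less RNA per cell cannot be told apart.

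Of the 41 genes, 11 were higher and 4 were lower in 4.5 g/l glucose, and 26 did not pass. Among all genes, 15.5% passed, 7.01% as higher and 8.52% as lower. The genes were chosen with results of these data known, so their larger share is a description of the list and not a test of it. The median log2 difference over the 41 genes was 0.13, against -0.0069 over all genes. The 4 classes were mixed: 2 elastic fibre genes were higher and 1 lower, and 2 laminin and nidogen genes were higher and 2 lower. Of the proteoglycans 3 were higher and none lower, and of the matricellular or adhesive genes 4 were higher and 1 lower. An unadjusted limma p under 0.05 was reached by 4 of the 11 proteoglycans and by 27.6% of all genes. The exact rank-sum test, which called 8.94% of all genes, called 0 of these 11. Among the 15 called genes the largest rise and the largest fall were both in the basement membrane: nidogen 2 rose 2.42-fold and laminin alpha 2 was 1.64-fold lower. In 6 of the 41 genes the groups had no overlap (Emilin1, Lama2, Nid1, Lamb1, Tnxb and Ecm1), where 6.4% of all genes did not overlap.

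**Figure D1:**
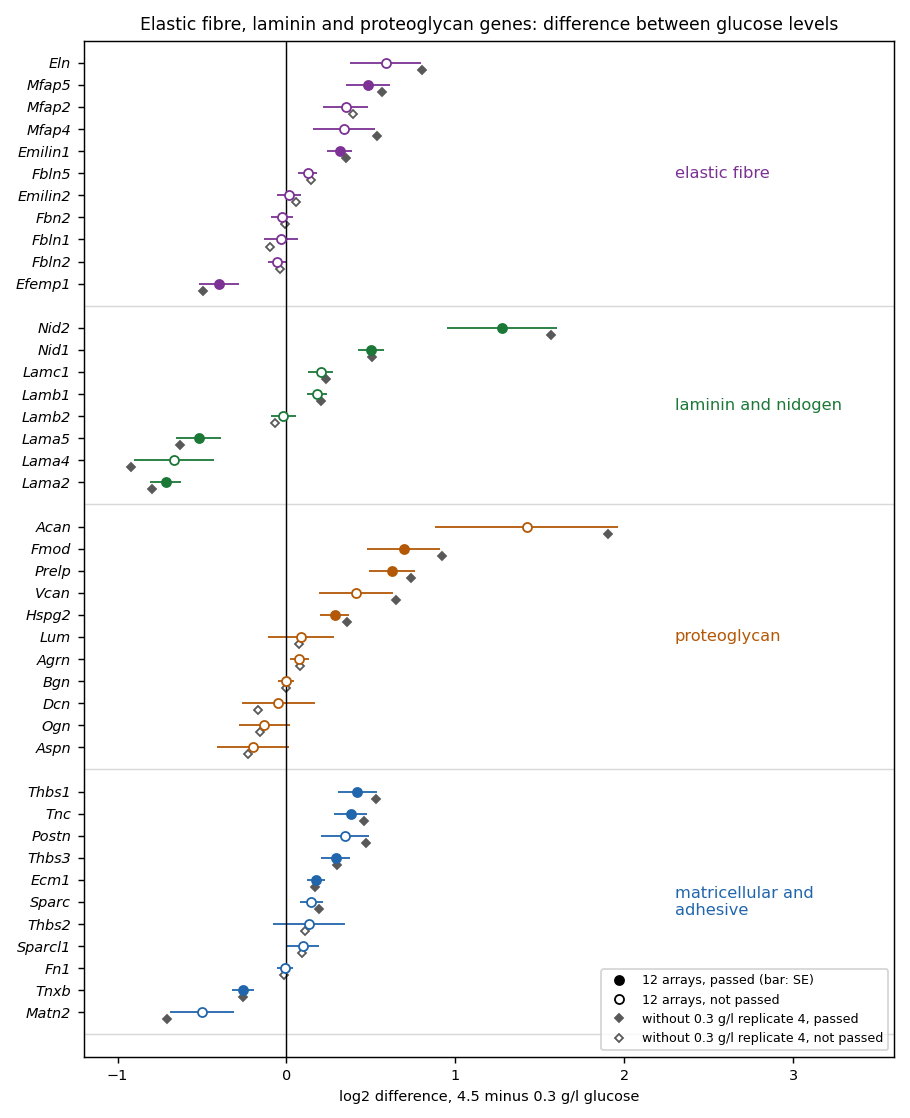
Log2 difference between 4.5 and 0.3 g/l glucose (x axis) for 41 matrix genes by class (y axis). Circles with SE bars use all 12 arrays and diamonds leave out 0.3 g/l replicate 4; filled symbols passed an adjusted p of 0.05 in limma. With all arrays 15 genes passed, and without that array 25.

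These counts turned on single arrays. Without 0.3 g/l replicate 4, 19 of the 41 genes were higher (10.3% of all genes) and 6 lower (13.6%), and 24 had groups without overlap (18.9% of all genes). The 15 genes called with 12 arrays were all called there too, and 14 of them differed by more. The 10 additional genes were Eln, Mfap4, Lama4, Lamb1, Lamc1, Acan, Vcan, Matn2, Postn and Sparc. The number called higher was 5 without replicate 1 or 3 of 0.3 g/l, 6 without replicate 5 and 7 without replicate 6. It was 7 without 4.5 g/l replicate 4 and 6 without 4.5 g/l replicate 6. Over all genes the higher count fell too, from 1555 with 12 arrays to 1202, 1224, 1216, 1205, 1292 and 1290 in the order given. In all 12 such omissions 8 of the 15 genes stayed called: Emilin1, Lama2, Lama5, Nid1, Nid2, Prelp, Tnc and Tnxb. The other 7 (Mfap5, Efemp1, Thbs1, Thbs3, Ecm1, Hspg2 and Fmod) lost the call in at least 1. Calls kept in all omissions were not counted over all genes, so this split describes the list and not a trait particular to it.

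**Figure D2:**
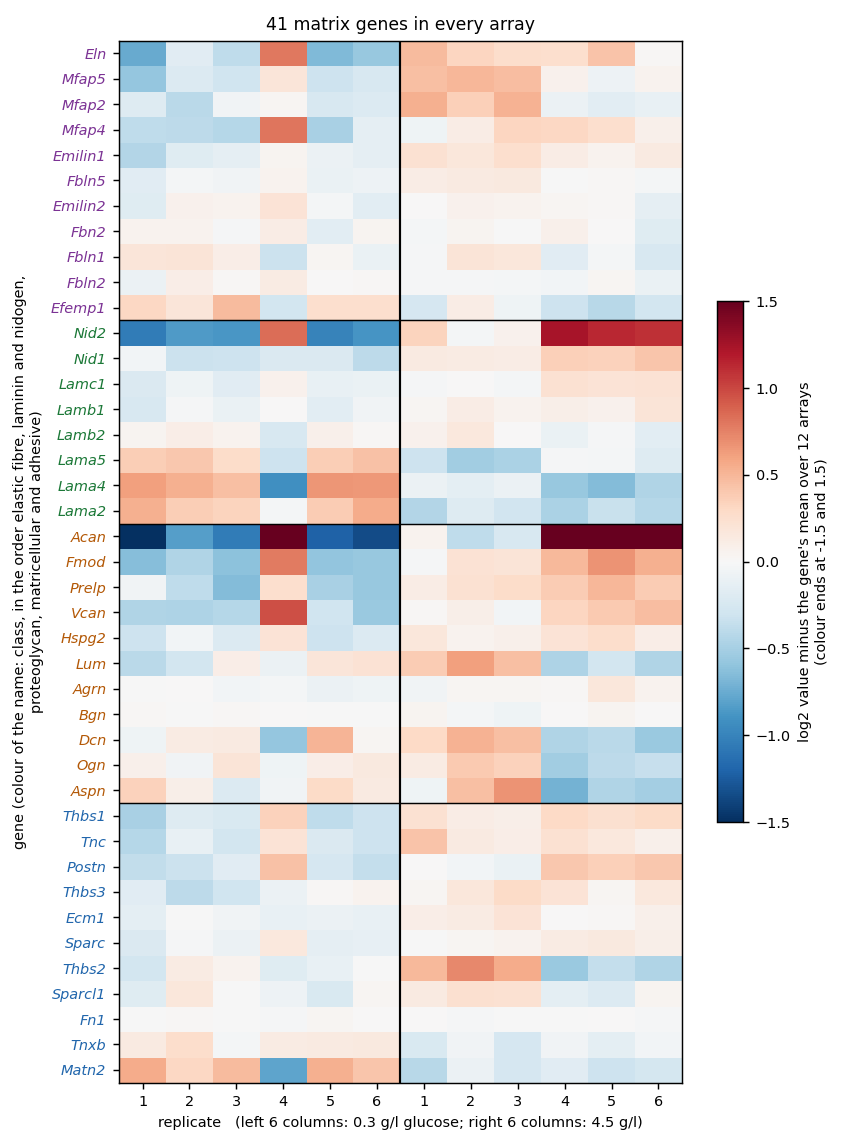
Log2 value of each of 41 matrix genes (rows, by class) on each of the 12 arrays (columns, by group and replicate), minus that gene's mean over the 12 arrays. In 0.3 g/l the column of replicate 4 differs from the other 5, with Eln, Nid2, Acan, Fmod, Vcan and Postn high and Lama4, Dcn and Matn2 low.

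In the laminin network 2 of the 3 alpha chains, Lama2 and Lama5, were lower in 4.5 g/l and both nidogens were higher. The third alpha chain, Lama4, and the beta and gamma chains Lamb1, Lamb2 and Lamc1 did not pass with 12 arrays.

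Lama2 encodes the alpha chain of muscle laminin, which binds dystroglycan and integrin alpha 7. It ran from 7.98 through a median of 8.38 to 8.56 in 0.3 g/l and from 7.53 through 7.63 to 7.81 in 4.5 g/l. All 4.5 g/l values lay below all 0.3 g/l values, of which replicate 4 was the lowest. Lama2 fell by 0.72 ± 0.09 on the log2 scale (SE; probe set 17239919; limma adjusted p = 0.000336), and by 0.79 without that array. Lama5, the alpha chain of laminins common under endothelium and in mature basement membranes, ran from 9.30 through 9.98 to 10.06 in 0.3 g/l and from 9.09 through 9.36 to 9.59 in 4.5 g/l. Replicate 4 was again the low array of 0.3 g/l, and the other 5 lay between 9.89 and 10.06, above all 4.5 g/l arrays. Lama5 was 1.43-fold lower (limma adjusted p = 0.0167). Lama4, the alpha chain of vascular laminins, lay between 7.28 and 7.50 in those 5 arrays, at 5.91 in replicate 4 and between 6.18 and 6.75 in 4.5 g/l. With 12 arrays its log2 difference was -0.67 ± 0.24 (SE) and did not pass (limma adjusted p = 0.0743), and without replicate 4 it was -0.92 ± 0.11 (limma adjusted p = 4.72e-05). Its 4 lowest values, and those of the endothelial list, were in the same 4 arrays. Lama5 was, in contrast, higher in 4.5 g/l replicates 4 to 6 (9.41 to 9.59) than in replicates 1 to 3 (9.09 to 9.30). The part of endothelial RNA in either result was not tested.

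Nid1 and Nid2 encode the 2 nidogens. Nid1 ran from 11.02 through 11.15 to 11.37 in 0.3 g/l and from 11.53 through 11.65 to 11.83 in 4.5 g/l, with no overlap. Its log2 difference was 0.50 ± 0.08 (SE; probe set 17285225; limma adjusted p = 0.00106), and a second probe set of the gene differed by 0.64. For Nid1, replicate 4 of 0.3 g/l, at 11.20, lay within its own group. Nid2 behaved otherwise in that group: the other 5 arrays of 0.3 g/l lay between 6.56 and 6.77 and replicate 4 at 8.45. Within 4.5 g/l both nidogens split. Nid1 lay between 11.53 and 11.55 in replicates 1 to 3 and between 11.76 and 11.83 in replicates 4 to 6. Nid2 lay between 7.59 and 7.95 and between 8.72 and 8.85 in the same sets. The Nid2 groups overlapped through 0.3 g/l replicate 4 alone. Nid2 rose 2.42-fold (log2 difference 1.28 ± 0.33, SE; limma adjusted p = 0.0166), and 2.97-fold without that array.

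Lamb1 and Lamc1, the beta and gamma chains shared by most laminins of the vessel wall, had log2 differences of 0.18 ± 0.06 (SE) and 0.20 ± 0.07, with limma adjusted p-values of 0.0512 and 0.0755. Lamb1 lay between 9.64 and 9.89 in 0.3 g/l and between 9.92 and 10.08 in 4.5 g/l. Its groups did not overlap, although the adjusted p missed the threshold. Both genes passed without 0.3 g/l replicate 4 (0.20 and 0.23; limma adjusted p = 0.0181 and 0.0229). Lamb2, the beta chain of mature muscle basement membrane, differed by -0.02 ± 0.07 (SE).

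**Figure D3:**
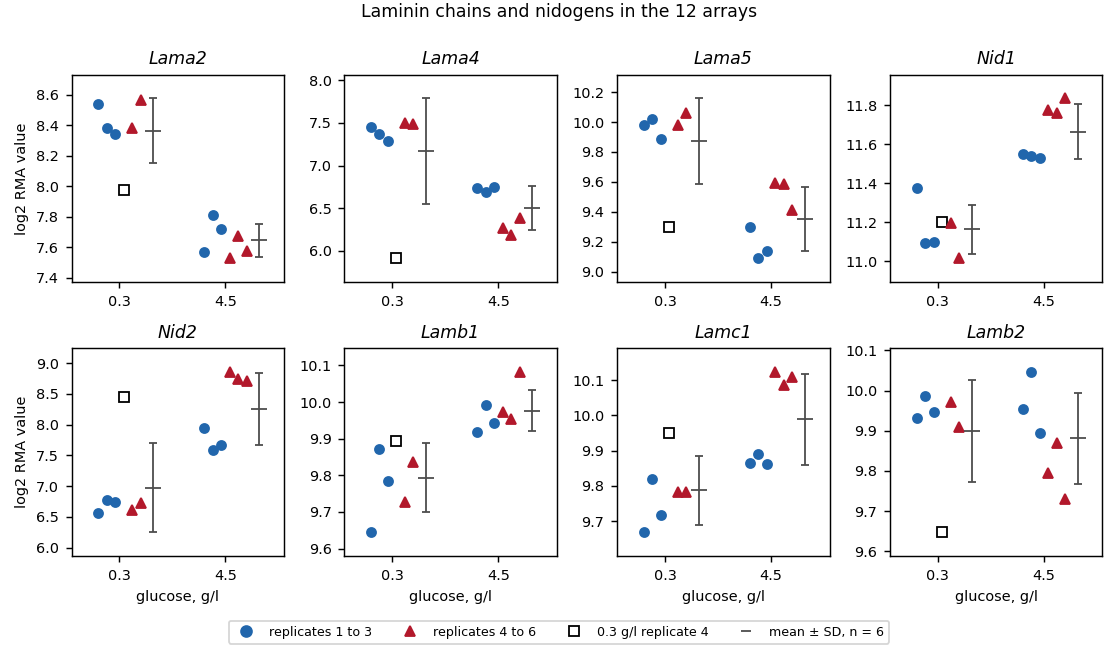
Log2 RMA values (y axis) of 6 laminin chains and 2 nidogens in 0.3 and 4.5 g/l glucose (x axis), 1 point per array, with the mean ± SD of the 6 arrays of a group. The open square is 0.3 g/l replicate 4. It lies outside the range of the rest of its group for every gene shown but Nid1, and farthest for Nid2 and Lama4.

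The promoters of Nid1, which rose, and Lama2, which fell, are shown because these genes differed most clearly in this class. They are RefSeq windows of 250 bases before to 50 after the start (GRCm38.p6), read 5′ to 3′ along the gene. Capitals mark matches, on either strand, to the CArG box bound by SRF, the SMAD-binding motif CAGAC, the TEAD motif GGAATG or the TATA motif TATAAA; no matches overlapped in the windows shown.
Nid1, chr13:13437352-13437651, plus strand: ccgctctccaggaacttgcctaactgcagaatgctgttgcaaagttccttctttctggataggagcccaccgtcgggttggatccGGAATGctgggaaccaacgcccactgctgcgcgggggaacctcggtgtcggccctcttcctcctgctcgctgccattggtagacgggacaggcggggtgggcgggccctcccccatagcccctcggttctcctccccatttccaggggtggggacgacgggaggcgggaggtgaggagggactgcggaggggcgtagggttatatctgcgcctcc
Lama2, chr10:27616893-27617192, minus strand: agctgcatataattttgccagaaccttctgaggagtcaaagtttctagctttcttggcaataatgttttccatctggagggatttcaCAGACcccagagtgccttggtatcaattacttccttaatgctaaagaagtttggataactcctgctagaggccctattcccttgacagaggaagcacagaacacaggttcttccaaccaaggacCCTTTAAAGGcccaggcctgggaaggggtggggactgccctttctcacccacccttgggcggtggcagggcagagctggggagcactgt
The Nid1 window held 1 TEAD motif, at -165 to -160 from the start, a motif found in 14.7% of the 32851 promoter windows of the same length. The Lama2 window held 1 CAGAC, a match that 49.6% of all windows have. It also held a CArG box at -39 to -30, which 1.63% of all windows have, and no other of the 35 windows of the 28 measured genes with a promoter had one. Such matches describe the letters of the window and nothing about binding.

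Of 15 further measured genes of the basement membrane and its receptors (other laminin chains, netrins, laminin receptors and collagens IV and XVIII), 8 were higher, 1 was lower and 6 did not pass. Of all genes, 7.01% were higher and 8.52% lower. The list, like the 4 other lists of related genes given here, was chosen with results of these data known, and its median log2 difference was 0.34. The 3 called with the smallest p were Itga3, the alpha subunit of a laminin-binding integrin (1.60-fold higher), Ntn4, a laminin-related netrin of basement membranes (1.87-fold), and Col18a1, the collagen from which endostatin is cut (1.82-fold); limma adjusted p-values were 2.64e-05, 0.000260 and 0.000468, with no overlap between groups. The 1 lower gene, named after its value was seen, was Lama1, a further laminin alpha chain. It was 1.71-fold lower (limma adjusted p = 0.0307), with 0.3 g/l replicate 4 at 4.91 below all 4.5 g/l arrays (5.18 to 5.51).

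Among elastic fibre genes, Emilin1 and Mfap5 were higher in 4.5 g/l and Efemp1 was lower. Elastin itself did not pass with all 12 arrays, and 8 of the 11 measured genes of the class, fibulins 1, 2 and 5 among them, did not pass.

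Emilin1, a glycoprotein at the interface of elastin and microfibrils that restrains TGF-beta processing, ran from 8.07 through a median of 8.36 to 8.55 in 0.3 g/l and from 8.56 through 8.66 to 8.76 in 4.5 g/l. All 4.5 g/l values lay above all 0.3 g/l values, by a narrow margin. The log2 difference was 0.31 ± 0.08 (SE; probe set 17435920; limma adjusted p = 0.0122), a 1.24-fold rise. Mfap5, a microfibril-associated glycoprotein that binds fibrillin, ran from 9.89 through 10.21 to 10.66 in 0.3 g/l and from 10.40 through 10.73 to 10.97 in 4.5 g/l. Its 4.5 g/l arrays split, with replicates 1 to 3 at 10.92 to 10.97 and replicates 4 to 6 at 10.40 to 10.54, and 0.3 g/l replicate 4 was at 10.66. Mfap5 rose 1.40-fold (limma adjusted p = 0.0229), a call lost without replicate 1, 3 or 5 of 0.3 g/l or replicate 1 of 4.5 g/l (at most 0.0552). Efemp1 encodes fibulin 3, a short fibulin. It ran from 7.46 through 7.98 to 8.20 in 0.3 g/l and from 7.32 through 7.46 to 7.84 in 4.5 g/l, and 0.3 g/l replicate 4 was the only array of its group within the 4.5 g/l range. Efemp1 fell by 0.40 ± 0.12 on the log2 scale (SE; limma adjusted p = 0.0347), a call lost in 9 of the 12 omissions of an array (at most 0.0825), and fell by 0.49 without 0.3 g/l replicate 4.

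Eln encodes tropoelastin, the soluble precursor of elastin. It lay between 10.69 and 11.26 in the other 5 arrays of 0.3 g/l, at 12.22 in replicate 4 and between 11.46 and 11.91 in 4.5 g/l. That replicate held the highest elastin value of the 12 arrays. With all arrays the log2 difference was 0.59 ± 0.21 (SE; limma adjusted p = 0.0764), and without replicate 4 it was 0.80 ± 0.11 (limma adjusted p = 0.000125). Mfap4, which binds fibrillin and elastin, had the same arrangement: 7.47 to 7.83 in the other 5 arrays, 8.76 in replicate 4 and 7.90 to 8.29 in 4.5 g/l. The log2 difference of Mfap4, 0.34 ± 0.18 (SE), missed the threshold with 12 arrays (limma adjusted p = 0.261) and was 0.53 without replicate 4 (limma adjusted p = 0.000450). Mfap2, another microfibril-associated glycoprotein, measured 6.40 to 6.58 in 4.5 g/l replicates 1 to 3 but 5.90 to 5.96 in the other 3, against 5.64 to 6.08 in 0.3 g/l. Its log2 difference of 0.35 ± 0.13 (SE) missed the threshold (limma adjusted p = 0.0959).

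The fibulins other than Efemp1 differed little between the groups. Fbln5, which tethers elastin to cells and microfibrils, had a log2 difference of 0.13 ± 0.06 (SE), Fbln2 of -0.06 ± 0.05 and Fbln1 of -0.03 ± 0.10. Emilin2 differed by 0.01 ± 0.07. The developmental fibrillin Fbn2 differed by -0.03 ± 0.06 at a mean of 4.39 in 0.3 g/l, close to the 4.20 that bounds the dimmest 25% of genes.

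Other genes of elastic fibre assembly included some higher ones. Of 16 measured, 4 were higher, 1 was lower and 11 did not pass, with a median log2 difference of 0.13. That is 31.2% called, against 15.5% of all genes. The latent TGF-beta binding proteins Ltbp1 and Ltbp2, both part of microfibrils, were 1.71-fold and 1.92-fold higher (limma adjusted p = 0.00141 and 0.00658), and Adamtsl4, a fibrillin-binding protein, was 1.77-fold higher (limma adjusted p = 0.00748). The other called genes, named after their values were seen, were the protease Adamts10 (1.31-fold higher; limma adjusted p = 0.0316) and Atp6v0a2, a proton pump subunit linked to elastin secretion (1.23-fold lower; limma adjusted p = 0.0460). Lox, the enzyme that cross-links elastin and collagen, differed by 0.24 ± 0.09 (SE) and did not pass (limma adjusted p = 0.0874).

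Proteoglycans differed in pattern: some were higher in 4.5 g/l, some lay at about the same value in both groups, and some split within 4.5 g/l. These patterns overlapped. In Prelp, Fmod, Acan and Vcan every array of 4.5 g/l replicates 4 to 6 lay above every array of replicates 1 to 3. For Prelp these sets were at 9.61 to 9.72 and 9.33 to 9.50, and for Fmod at 10.53 to 10.71 and 10.02 to 10.26. Prelp, Fmod and Hspg2 were higher. Prelp, a small leucine-rich protein that anchors basement membranes to connective tissue, ran from 8.57 through a median of 8.79 to 9.47 in 0.3 g/l and from 9.33 through 9.55 to 9.72 in 4.5 g/l. Only 0.3 g/l replicate 4 reached the 4.5 g/l range. Prelp rose 1.54-fold (log2 difference 0.63 ± 0.14, SE; probe set 17227077; limma adjusted p = 0.00713), and a second, dimmer probe set differed by 0.22 and did not pass (limma adjusted p = 0.183 over all probe sets). Fmod, fibromodulin, which binds collagen fibrils and TGF-beta, lay between 9.41 and 9.59 in the other 5 arrays of 0.3 g/l, at 10.82 in replicate 4 and between 10.02 and 10.71 in 4.5 g/l. That replicate was the highest of the 12 arrays. Fmod rose 1.62-fold (log2 difference 0.69 ± 0.22, SE; limma adjusted p = 0.0447). The call was lost in 10 of the 12 omissions of an array (at most 0.0984), while without 0.3 g/l replicate 4 the rise was 1.89-fold (limma adjusted p = 4.60e-05). A second Fmod probe set differed by 0.60 (limma adjusted p = 0.0904 over all probe sets). Hspg2 encodes perlecan, the heparan sulfate proteoglycan of basement membranes. It ran from 10.97 through 11.08 to 11.49 in 0.3 g/l and from 11.34 through 11.42 to 11.54 in 4.5 g/l, with only replicate 4 of 0.3 g/l inside the 4.5 g/l range. Hspg2 rose 1.22-fold (limma adjusted p = 0.0379), a call lost in 8 of the 12 omissions (at most 0.0899).

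Fmod and Prelp are neighbours on chromosome 1 in RefSeq's GRCm38.p6 annotation, in a run of small leucine-rich proteoglycan genes with Optc and no other protein-coding gene between. Their promoter windows are shown because both genes rose; capitals again mark matches to the 4 motifs.
Fmod, chr1:134037004-134037303, plus strand: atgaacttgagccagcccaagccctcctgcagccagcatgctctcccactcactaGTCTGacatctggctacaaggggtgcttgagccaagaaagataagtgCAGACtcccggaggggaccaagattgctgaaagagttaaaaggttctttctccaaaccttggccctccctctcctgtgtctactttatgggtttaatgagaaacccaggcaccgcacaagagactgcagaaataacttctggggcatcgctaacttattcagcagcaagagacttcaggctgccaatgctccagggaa
Prelp, chr1:133921352-133921651, minus strand: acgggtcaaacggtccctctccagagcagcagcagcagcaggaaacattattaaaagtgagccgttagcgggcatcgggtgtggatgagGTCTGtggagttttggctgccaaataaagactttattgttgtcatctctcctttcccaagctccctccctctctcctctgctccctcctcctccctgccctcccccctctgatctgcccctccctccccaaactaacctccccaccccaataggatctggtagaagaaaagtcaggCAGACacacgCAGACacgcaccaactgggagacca
All matches in both windows were to CAGAC or its reverse complement, with 2 in Fmod and 3 in Prelp. That motif was in 22 of the 35 windows of measured genes (62.9%) and in 49.6% of all windows. Dcn and Lum lie in a like run on chromosome 10 and Aspn and Ogn in one on chromosome 13, and none of these 4 genes passed with 12 arrays (none at an unadjusted limma p under 0.05 and none by the rank-sum test).

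The large chondroitin sulfate proteoglycans were spread widely. Acan, aggrecan, best known from cartilage, lay between 7.34 and 8.04 in the other 5 arrays of 0.3 g/l and at 10.57 in replicate 4. In 4.5 g/l it lay between 8.49 and 8.93 in replicates 1 to 3 and between 10.41 and 10.54 in replicates 4 to 6. Replicate 4 of 0.3 g/l thus lay with 4.5 g/l replicates 4 to 6. With 12 arrays the log2 difference was 1.42 ± 0.54 (SE) and did not pass (limma adjusted p = 0.0983), and without that array it was 1.90 ± 0.39 (limma adjusted p = 0.00302). Vcan, versican, the main large proteoglycan of the vessel wall, lay between 5.74 and 5.99 in the other 5 arrays, at 7.26 in replicate 4 and between 6.26 and 6.75 in 4.5 g/l. Its log2 difference of 0.41 ± 0.22 (SE; limma adjusted p = 0.249) became 0.65 without replicate 4 (limma adjusted p = 0.000270).

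Biglycan and agrin lay at about the same values in both groups. Bgn, which binds collagen and TGF-beta, had a log2 difference of -0.0038 ± 0.0475 (SE), with all arrays between 13.64 and 13.74; the largest value on any array being 13.90, the array has little room above it. A second, dimmer Bgn probe set differed by 0.11 and did not pass. Agrn, a heparan sulfate proteoglycan of basement membranes, differed by 0.08 ± 0.05.

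Decorin, lumican, osteoglycin and asporin, small leucine-rich proteoglycans, split within 4.5 g/l. Dcn lay between 5.58 and 5.81 in 4.5 g/l replicates 1 to 3 and between 4.72 and 4.88 in replicates 4 to 6, against 5.21 to 5.79 in 0.3 g/l apart from replicate 4, which was at 4.70. Ogn lay at 11.22 to 11.49 and 10.57 to 10.75 in the same 2 sets of 4.5 g/l arrays, and at 11.02 to 11.29 in 0.3 g/l. Lum, at 3.99 to 4.23 and 3.14 to 3.34, was below the dim bound of 4.20 on 11 of the 12 arrays, and its differences are uncertain. Aspn was at 4.68 to 5.43 and 4.04 to 4.30, the latter close to that bound. For all 4 genes every array of replicates 4 to 6 was below every array of replicates 1 to 3. None of the 4 passed with 12 arrays, where their log2 differences ran from -0.20 to 0.09.

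Thbs2, a thrombospondin that limits angiogenesis and fibril thickness, split in the same way, with 9.60 to 9.84 in 4.5 g/l replicates 1 to 3, 8.55 to 8.76 in replicates 4 to 6 and 8.84 to 9.24 in 0.3 g/l. The comparison was also made within replicate numbers. In replicates 1 to 3, 15 of the 41 genes were higher and 4 lower (5.92% and 7.16% of all genes). In replicates 4 to 6 limma called 0 higher and 0 lower (0.0947% and 0.0406% of all genes). An unadjusted limma p under 0.05 was reached in these replicates by 12 of the 41 and by 3699 of all 22180 genes. With 0.3 g/l replicate 4 left out there, 12 were higher and 10 lower (6.55% and 8.94% of all genes). Within replicates 1 to 3 Dcn, Lum and Thbs2 were higher in 4.5 g/l, by 0.36, 0.67 and 0.62 (limma adjusted p = 0.0481, 0.0209 and 0.0170; 13.1% of all genes passed). With 4.5 g/l replicates 4 to 6 set against 0.3 g/l replicates 5 and 6 the same 3 genes were lower, with log2 differences of -0.74, -0.60 and -0.39 (limma adjusted p = 0.0256, 0.00995 and 0.0424), as were Aspn (-0.77) and Ogn (-0.54; limma adjusted p = 0.00756 and 0.0114; 15.5% of all genes passed). Dcn, Lum, Aspn, Ogn and Thbs2 are named here because their arrays split, so these p-values describe that split and are no independent test of it. The difference between these 2 differences was not tested, as the labels name no factor behind the replicate numbers. Acan was higher in both comparisons, by 0.95 and 2.88 (limma adjusted p = 0.0190 and 0.000109), as were Nid2 (1.05 and 2.10), Fmod (0.70 and 1.15), Eln (0.79 and 0.85) and Vcan (0.47 and 0.82), and Lama2 was lower in both (-0.72 and -0.88). Over the 41 genes, 4.5 g/l replicates 4 to 6 lay wholly above replicates 1 to 3 in 11 and wholly below in 15. The same counts were not made over all genes, so these describe the list and not a trait particular to it. The endothelial and fibroblast list means were lower in replicates 4 to 6 than in 1 to 3, as given above. The fibroblast list holds Dcn and Lum themselves, so its mean is not separate from their split. The part of either cell type in these splits was not tested.

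**Figure D4:**
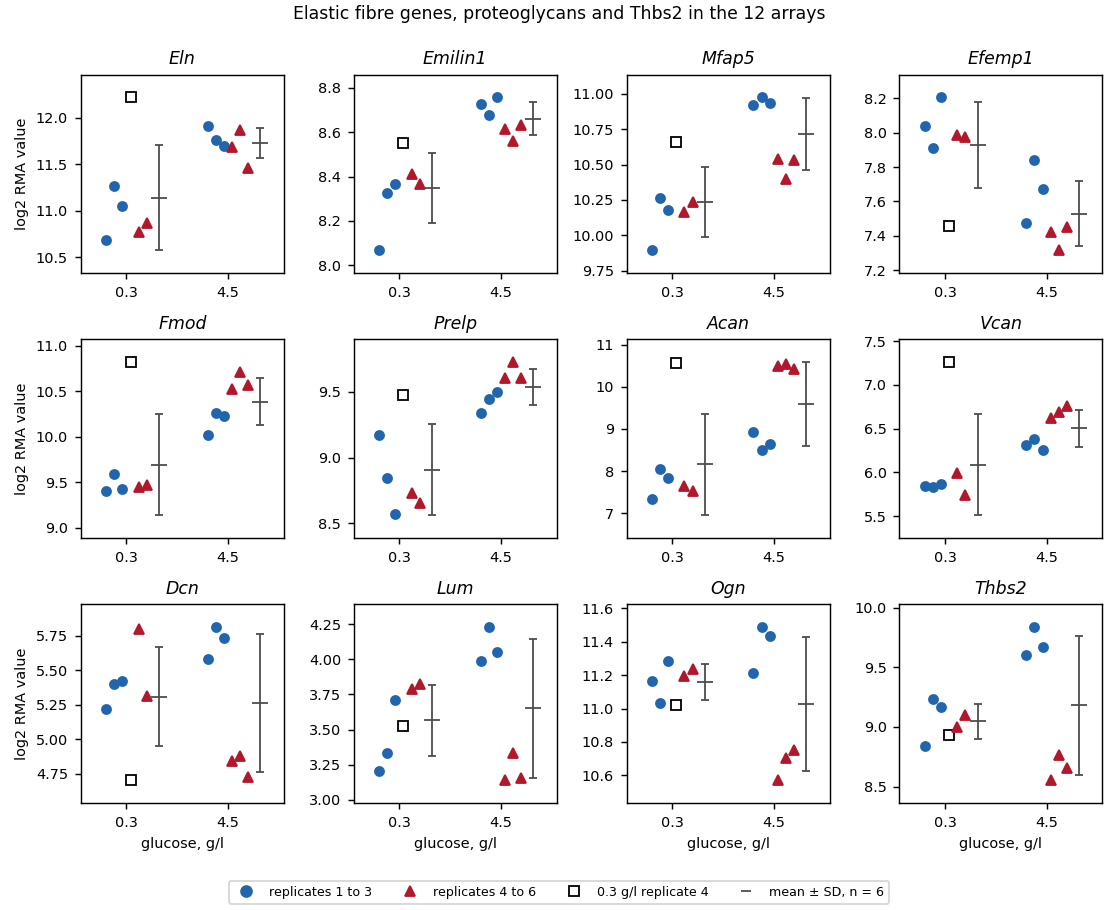
Log2 RMA values (y axis) of 4 elastic fibre genes, 7 proteoglycans and Thbs2 in 0.3 and 4.5 g/l glucose (x axis), 1 point per array, with the mean ± SD of the 6 arrays of a group. The open square, 0.3 g/l replicate 4, is at 12.22 for Eln and 10.57 for Acan, and the 4.5 g/l arrays of Dcn, Lum, Ogn and Thbs2 form a higher set of replicates 1 to 3 and a lower set of replicates 4 to 6.

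**Figure D5:**
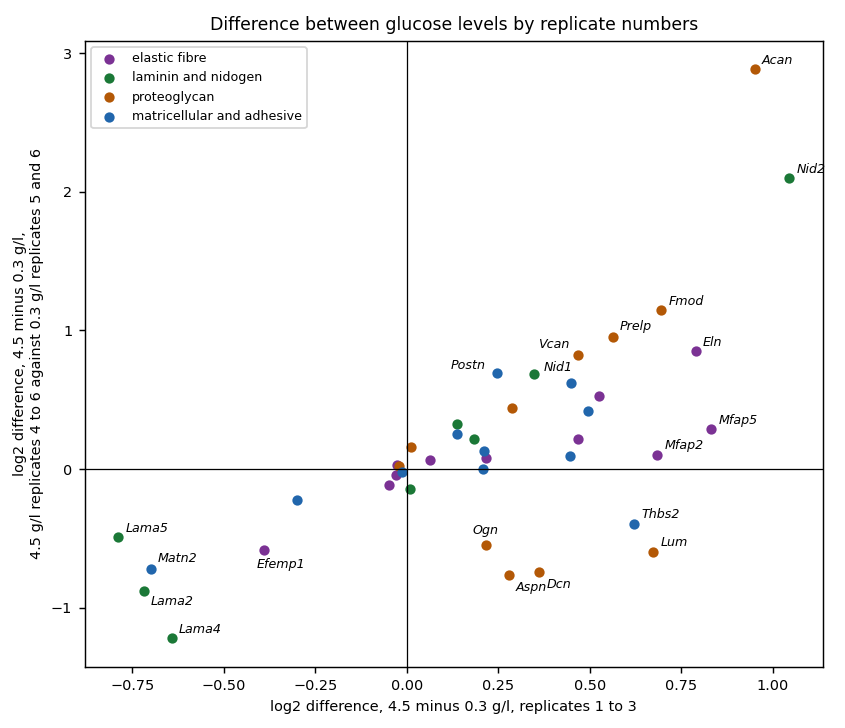
Log2 difference between 4.5 and 0.3 g/l for each of 41 genes within replicates 1 to 3 (x axis) and for 4.5 g/l replicates 4 to 6 against 0.3 g/l replicates 5 and 6 (y axis), 1 point per gene, coloured by class. Dcn, Lum, Ogn, Aspn and Thbs2 lie at lower right, with a positive value on the first axis and a negative one on the second, and Acan at the top right with 0.95 and 2.88.

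Of 29 measured proteoglycans and link proteins outside the 43 genes, 5 were higher, 2 were lower and 22 did not pass. That is 24.1% called, against 15.5% of all genes, and the median log2 difference of the list was 0.02. The transmembrane heparan sulfate proteoglycans Sdc3 and Sdc4 were 1.45-fold and 1.53-fold higher (limma adjusted p = 0.00123 and 0.00331). Hapln4, a link protein known from brain, was 2.00-fold lower (limma adjusted p = 0.00453). The other 3 higher genes, named after their values were seen, were Cspg4, a proteoglycan of mural cells (1.44-fold), the hyaluronan receptor Cd44 (1.18-fold) and podocan, Podn (1.65-fold). The second lower gene, also named after its value was seen, was serglycin, Srgn, of secretory granules (1.39-fold lower).

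Of the matricellular and adhesive genes, Thbs1, Tnc, Thbs3 and Ecm1 were higher in 4.5 g/l and Tnxb was lower. Thbs1, thrombospondin 1, an activator of latent TGF-beta, ran from 12.23 through a median of 12.45 to 13.06 in 0.3 g/l and from 12.81 through 12.95 to 13.01 in 4.5 g/l. The top value was 0.3 g/l replicate 4, and the other 5 arrays of that group did not exceed 12.52. Thbs1 rose 1.34-fold (log2 difference 0.42 ± 0.115, SE; probe set 17374488; limma adjusted p = 0.0239), a call lost in 6 of the 12 omissions (at most 0.0589). Tnc, tenascin C, which appears in remodelling vessels, ran from 10.02 through 10.21 to 10.66 in 0.3 g/l and from 10.54 through 10.61 to 10.88 in 4.5 g/l. Again only replicate 4 of 0.3 g/l reached the 4.5 g/l range. Tnc rose 1.30-fold (log2 difference 0.38 ± 0.10, SE; limma adjusted p = 0.0187).

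Tnxb encodes tenascin X, a collagen-binding tenascin whose loss gives lax connective tissue. It ran from 5.75 through 5.92 to 6.04 in 0.3 g/l and from 5.53 through 5.68 to 5.74 in 4.5 g/l. Every 4.5 g/l value lay below every 0.3 g/l value, by a narrow margin, and replicate 4 lay within its own group. Tnxb fell by 0.26 ± 0.06 on the log2 scale (SE; limma adjusted p = 0.0147). Thbs3, a pentameric thrombospondin, ran from 6.44 through 6.70 to 6.89 in 0.3 g/l and from 6.85 through 7.00 to 7.12 in 4.5 g/l, with replicates 5 and 6 of 0.3 g/l at the lower edge of the 4.5 g/l range. Thbs3 rose 1.22-fold (limma adjusted p = 0.0314), a call lost in 7 of the 12 omissions (at most 0.0765). Ecm1, which binds perlecan and other matrix proteins, lay between 11.82 and 11.96 in 0.3 g/l and between 11.98 and 12.16 in 4.5 g/l. All 4.5 g/l values were the higher ones. Ecm1 rose 1.13-fold (limma adjusted p = 0.0425), a call lost in 9 of the 12 omissions (at most 0.0948).

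A further 3 genes of the class did not pass with 12 arrays weighted equally but passed when 0.3 g/l replicate 4 was left out. All 3 also passed with array weights. Matn2, a matrilin of filamentous networks, lay between 7.56 and 7.80 in the other 5 arrays, at 6.45 in replicate 4 and between 6.83 and 7.16 in 4.5 g/l. Its log2 difference was -0.50 ± 0.19 (SE; limma adjusted p = 0.0964) with 12 arrays and -0.71 ± 0.07 (limma adjusted p = 8.12e-06) without replicate 4. Postn, periostin, a matricellular protein of injured vessels, lay between 11.29 and 11.50 in the other 5 arrays, at 12.11 in replicate 4, between 11.57 and 11.67 in 4.5 g/l replicates 1 to 3 and between 12.03 and 12.08 in replicates 4 to 6. The log2 difference of Postn was 0.35 ± 0.14 (SE; limma adjusted p = 0.131), and 0.47 without replicate 4 (limma adjusted p = 0.00511). Sparc, a collagen-binding counter-adhesive protein, differed by 0.15 ± 0.07 (SE; limma adjusted p = 0.172), and by 0.19 without replicate 4 (limma adjusted p = 0.0179).

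Fn1, fibronectin, on which fibrillin and collagen assemble, had a log2 difference of -0.0099 ± 0.0457 (SE), with all 12 arrays between 13.54 and 13.58. As with Bgn, these values are close to the largest on the array, 13.90. Sparcl1, a relative of Sparc, differed by 0.10 ± 0.09 at values between 4.31 and 4.79, near the dim bound.

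Among other matricellular and adhesive glycoproteins, 7 of 26 measured were higher, 1 was lower and 18 did not pass. That is 30.8% called, against 15.5% of all genes, with a median log2 difference of 0.04 for the list. Smoc2, a calcium-binding relative of Sparc, was 1.60-fold higher (limma adjusted p = 3.87e-05), and Vwa1, a perlecan-binding protein, 1.82-fold (limma adjusted p = 0.000144). Npnt, nephronectin, an integrin ligand of basement membranes, rose 2.64-fold (limma adjusted p = 0.000392), from 10.42 ± 0.50 to 11.83 ± 0.18 (SD, n = 6). The groups did not overlap for any of these 3 genes. The 1 lower gene, named after its value was seen, was Ccn4 (1.33-fold; limma adjusted p = 0.00405).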

How the data were processed

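The 12 arrays were grouped by their labels, 6 per glucose level. The authors deposited 1 table of log2 values for 41345 probe sets, made with Affymetrix Expression Console and RMA, per the submitters' processing notes; versions and a genome build were not given in the sources used here. RMA gives all arrays the same distribution, which hides any change in the amount of RNA in a cell, and it compresses differences of dim or very bright genes. The platform annotation gave 1 gene symbol to 23521 probe sets, several to 1814 (not named) and none to 16010.

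From these values each of 22180 genes was taken from its brightest probe set and tested with limma 3.58.1 under R 4.3.3 (moderated linear models, two-sided, no block term). P-values were adjusted over all genes by Benjamini-Hochberg, and 0.05 was the threshold. The genes, their classes, the related lists and the markers were chosen with earlier results of these data known. Values are given for the called genes with the 4 smallest p in each class and for others the results turn on. In each related list they are given for the 3 called genes with the smallest p. Other genes of the related lists are said to be named after their values were seen, apart from Lox. Lox and the single cell type markers named were outside this rule too. The fit was tested on simulated data. Alternatives were variance moderation, a filter on dim genes, scaling, probe set choice, array weights, a replicate block, an exact rank-sum test, omission of each array and replicates 1 to 3 or 4 to 6 alone. No columns were identical, and correlations between arrays of a group ran from 0.979 to 0.990. The precision is limited by the number of arrays, with a median SE of 0.0931. Promoter windows are RefSeq's (GRCm38.p6), found for 28 of the 41 genes. Figures were drawn with matplotlib 3.10.9.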

Additional observations from a re-analysis of the deposited data

Results flagged for a closer look

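In 12 of 82 group-by-gene sets of 6 arrays, 1 array stood far from the other 5 for a named gene (Dixon's test at 95%), where chance gives about 1 in 20. In 11 of the 12 that array was 0.3 g/l replicate 4, and these sets share their arrays, so they are not independent of each other. It was the highest of its group for Acan at 10.57 (others 7.34 to 8.04), Fmod at 10.82 (9.41 to 9.59), Vcan at 7.26 (5.74 to 5.99), Nid2 at 8.45 (6.56 to 6.77), Mfap4 at 8.76 (7.47 to 7.83), Postn at 12.11 (11.29 to 11.50) and Thbs1 at 13.06 (12.23 to 12.52). It was the lowest for Lama4 at 5.91 (7.28 to 7.50), Lama5 at 9.30 (9.89 to 10.06), Lamb2 at 9.65 (9.91 to 9.99) and Matn2 at 6.45 (7.56 to 7.80). The remaining array was 4.5 g/l replicate 6, the lowest of its group for Emilin2 at 5.50 (others 5.63 to 5.70). Over all 41 genes, 0.3 g/l replicate 4 lay outside the range of the other 5 arrays of its group in 31. Of the 25 genes called without it, it lay nearer to the 4.5 g/l mean than to the mean of those 5 arrays in 21. The exceptions were Nid1, Tnxb, Ecm1 and Thbs3. Neither count was made over all genes, so both describe the list and not a trait particular to it.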

How the results depend on the processing

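Over all genes 3444 passed; the count was 5419 with array weights, 5295 without 0.3 g/l replicate 4 (2514 to 5295 over the 12 omissions), 1982 by the rank-sum test and 30 in replicates 4 to 6. Of the 41 genes 11 were called higher and 4 lower. The higher count was 20 with array weights, 4 by the rank-sum test and 5 to 19 over the omissions. It was 0 in replicates 4 to 6 (4.5 g/l against 0.3 g/l with replicate 4 included), where 0.135% of all genes passed. There, 12 of the 41 and 3699 of all 22180 genes had an unadjusted limma p under 0.05. The lower count was 2 by the rank-sum test, 0 in replicates 4 to 6, 10 there without 0.3 g/l replicate 4, and 3 to 6 over the omissions. The rank-sum test called 6 of the 41 genes, limma 15, and 25 had an unadjusted limma p under 0.05. Over all genes these shares were 8.94%, 15.5% and 27.6%. With the replicate block 9 were higher and 5 lower, with the calls of Ecm1, Hspg2 and Thbs3 lost and those of Acan and Lama4 gained. Over all genes 1419 were higher and 1711 lower with the block, against 1555 and 1889 without it. The replicate numbers share no source named in the labels: deviations of same-numbered arrays correlated at -0.046 to 0.173, and 1 of 6 arrays matched its own number best. With median centring 9 were higher, Ecm1 and Thbs3 being lost, and the median of all genes was -0.05. The higher count over all genes fell there too, from 1555 to 1272.

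Of the 41 genes, only ones not called with 12 arrays changed sign in any of the 23 settings, at these log2 differences. In replicates 1 to 3 Dcn was at 0.36, Aspn 0.28, Ogn 0.22 and Lamb2 0.0086. In replicates 4 to 6, with and without 0.3 g/l replicate 4, Thbs2 was at -0.35 and -0.39, Lum -0.50 and -0.60, Sparcl1 -0.0117 and -0.0025, and Bgn 0.0151 and 0.0212; Emilin2 was at -0.0366 with it and Fbn2 at 0.0268 without. With cyclic loess Lamb2 was at 0.0087, Fn1 0.0129 and Bgn 0.0187; with median centring Emilin2 was at -0.0300; with the mean of its probe sets Bgn was at 0.0526. Over the omissions of 1 array Fbn2 ran from -0.0608 to 0.0064, Fbln1 from -0.0988 to 0.0127, Emilin2 from -0.0215 to 0.0563, Lamb2 from -0.0686 to 0.0120, Lum from -0.0301 to 0.1877, Dcn from -0.1684 to 0.0603 and Bgn from -0.0126 to 0.0089. The causes were not tested. Values near the largest on the arrays, as for Bgn and Fn1, and near the dim bound, or below it, as for Lum, Aspn, Fbn2 and Sparcl1, limit what a difference shows.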

Other observations

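Enzymes that build glycosaminoglycan chains, the sugar chains of the proteoglycans, moved in both directions. Of 38 measured, 6 were higher in 4.5 g/l, 3 were lower and 29 did not pass, with a median log2 difference of 0.06. That is 23.7% called, against 15.5% of all genes. This list was chosen with earlier results of these data known. Chst12, a chondroitin sulfotransferase, rose from 7.29 ± 0.19 to 7.95 ± 0.14 (SD, n = 6), 1.58-fold (limma adjusted p = 0.000488). Ndst2, which sulfates heparan chains, rose 1.26-fold (limma adjusted p = 0.00529). Extl1, an exostosin-like glycosyltransferase, was 2.28-fold lower (limma adjusted p = 0.00106), from 5.93 ± 0.49 to 4.74 ± 0.19. The groups did not overlap for any of these 3 genes, and all 3 passed in each of the 12 omissions of an array.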
